A study of Mus musculus with 6 samples.

Results

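The 10 genes described here form the core of the circadian clock. They were taken from the deposited expression table by gene symbol, as the genes *Clock*, *Npas2*, *Arntl* (now also named *Bmal1*), *Per1*, *Per2*, *Per3*, *Cry1*, *Cry2*, *Nr1d1* and *Dbp*. All 10 were among the 18477 genes of the table, and all 10 passed the filter on low counts. The libraries came from the colon of male C57BL/6 mice that had drunk dextran sulfate sodium (DSS), which damages the lining of the colon and so produces colitis. The DSS group was gavaged with PBS, and the DSS+BV group with the gut bacterium *Bacteroides vulgatus* (BV), daily before and during DSS. Both groups carried the colitis treatment, and mice without DSS were not analysed here. Each of the 3 DSS and 3 DSS+BV libraries is 1 mouse, drawn at random from its group. The time of day at which the colons were taken is not given in the sources used here.

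The mammalian clock is a feedback loop of transcription. ARNTL pairs with CLOCK or NPAS2 and binds E-box sequences to switch on the *Per*, *Cry*, *Nr1d1* and *Dbp* genes. PER and CRY proteins return to the nucleus and block the pair, while NR1D1 (REV-ERB alpha) represses *Arntl* and other genes through ROR elements, and DBP activates genes with a D-box. As a result, *Arntl*, *Npas2* and *Clock* RNA rises and falls at about the opposite time of day from *Nr1d1*, *Dbp* and the *Per* genes. *Cry1* peaks later than the *Per* genes. Nearly all cells of the colon, epithelium and muscle included, run such a clock, and feeding and light set its phase. The comparison asked whether mice of the same or of different treatment differed in these genes and in the balance between the opposing arms.

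RefSeq promoter windows (build GRCm38.p6, the build named in the submitters' processing notes) were found for 9 of the 10 genes (all but *Per2*, which was not searched), as 13 windows of 250 bases before to 50 after a start site. They were searched on both strands for the E-box CACGTG, the E-box variant CACGTT, the D-boxes TTACGTAA and TTATGTAA, and the ROR element cores TAGGTCA and TGGGTCA. Among all 32851 RefSeq windows of this length, 7.15% held the E-box, 4.68% the variant, 1.06% a D-box and 6.45% a ROR core. The 250 bases before the start are printed for 4 genes whose upstream bases hold an E-box, its variant or a D-box, with the motif matches in capitals. These are *Per1* (chr11:69098699-69098948, plus strand), *Cry1* (chr10:85185055-85185304, minus strand), *Nr1d1* (chr11:98775378-98775627, minus strand) and *Per3* (chr4:151044666-151044915, minus strand).
Per1: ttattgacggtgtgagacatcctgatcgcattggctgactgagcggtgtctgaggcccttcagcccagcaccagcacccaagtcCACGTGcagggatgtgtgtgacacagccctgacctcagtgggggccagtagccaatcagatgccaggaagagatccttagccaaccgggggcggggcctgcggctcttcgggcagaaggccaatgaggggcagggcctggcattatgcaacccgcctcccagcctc
Cry1: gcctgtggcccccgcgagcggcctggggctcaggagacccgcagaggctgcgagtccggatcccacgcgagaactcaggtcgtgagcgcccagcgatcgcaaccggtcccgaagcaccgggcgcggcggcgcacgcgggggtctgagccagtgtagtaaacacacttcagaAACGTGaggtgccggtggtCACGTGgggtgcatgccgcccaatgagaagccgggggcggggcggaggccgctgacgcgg
Nr1d1: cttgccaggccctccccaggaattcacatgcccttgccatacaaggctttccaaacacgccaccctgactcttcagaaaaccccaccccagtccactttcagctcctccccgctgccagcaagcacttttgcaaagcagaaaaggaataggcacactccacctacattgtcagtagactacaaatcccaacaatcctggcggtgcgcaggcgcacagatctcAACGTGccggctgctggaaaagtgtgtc
Per3: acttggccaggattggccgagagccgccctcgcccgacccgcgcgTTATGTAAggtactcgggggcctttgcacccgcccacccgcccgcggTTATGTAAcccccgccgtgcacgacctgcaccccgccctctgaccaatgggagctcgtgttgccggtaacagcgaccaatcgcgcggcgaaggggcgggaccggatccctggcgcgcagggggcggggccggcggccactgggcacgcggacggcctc
The capitals mark an E-box starting at position -166 in *Per1*, the variant (written as AACGTG on this strand) at -79 and an E-box at -60 in *Cry1*, the variant at -28 in *Nr1d1*, and D-boxes at -205 and -158 in *Per3*, counted back from the start site. The windows of *Cry2* held the variant at -166, and 1 of the 2 windows of *Arntl* held a ROR core at +31. The windows of *Clock*, *Npas2* and *Dbp* and the other window of *Per1* held none of these letters. A match describes the sequence and is not a measured binding site.

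The expected counts summed to between 15293276 and 17254343 per library. Expression is given as CPM, each count scaled to a common library size with TMM factors. The 10 genes had between 153 and 2424 counts in each library and were deposited as whole numbers. Exact Poisson intervals (95%) of the CPM values cover counting error only. In these bulk samples, fewer cells of a type and less RNA per cell cannot be told apart.

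*Arntl* (Entrez gene 11865, chromosome 7), the activator that the loop cannot run without, was at 29.2, 23.1 and 31.2 CPM in DSS 1, 2 and 3. It was at 37.6, 38.0 and 17.1 CPM in DSS+BV 1, 2 and 3. The DSS+BV group held both the highest values and the lowest, and the groups overlapped. The group means were 27.8 ± 4.20 CPM without BV and 30.9 ± 11.96 CPM with BV (SD, n = 3 each).

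*Npas2* (Entrez gene 18143, chromosome 1), a partner of ARNTL that can stand in for CLOCK, was at 22.0, 9.51 and 22.1 CPM in the DSS mice and at 18.3, 22.4 and 14.2 CPM in the DSS+BV mice. DSS 2 was the lowest library, at 2.32-fold under DSS 3 of its own group. *Clock* (Entrez gene 12753, chromosome 5), which encodes the other partner, was at 145, 113 and 72.8 CPM in the DSS mice and at 122, 111 and 81.1 CPM in the DSS+BV mice. Its highest and lowest libraries, DSS 1 and DSS 3, were of the same group. *Clock* RNA is known to cycle weakly in most tissues, and here it spanned 1.99-fold over the 6 libraries, against 2.22-fold for *Arntl* and 2.34-fold for *Npas2*.

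Of the *Per* repressors, *Per1* (Entrez gene 18626, chromosome 11) varied least, from 58.9 CPM in DSS 1 to 82.5 CPM in DSS 3. Its DSS+BV values of 68.7, 65.9 and 70.7 CPM lay within the range of the DSS values. *Per2* (Entrez gene 18627, chromosome 1), which like *Per1* also responds to hormones and other acute signals, was at 47.7, 83.4 and 62.4 CPM in the DSS mice. It was at 117, 89.4 and 72.8 CPM in the DSS+BV mice. The DSS+BV values were higher except that DSS+BV 3 lay under DSS 2. *Per3* (Entrez gene 18628, chromosome 4), an accessory member of the family, was at 20.3, 66.6 and 35.5 CPM in the DSS mice and at 49.3, 40.5 and 50.1 CPM in the DSS+BV mice. The DSS mice spanned 3.28-fold in *Per3* and the DSS+BV mice 1.24-fold, and the DSS+BV values lay between those of DSS 3 and DSS 2.

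*Cry1* (Entrez gene 12952, chromosome 10), the stronger repressor of the CRY pair, was at 23.4, 24.4 and 29.9 CPM in the DSS mice. It was at 42.2, 43.4 and 29.3 CPM in the DSS+BV mice. DSS+BV 1 and 2 were above every DSS mouse, and DSS+BV 3 was just under DSS 3. *Cry2* (Entrez gene 12953, chromosome 2) was at 19.1, 38.3 and 31.0 CPM in the DSS mice and at 29.0, 35.0 and 37.7 CPM in the DSS+BV mice. DSS 1 and DSS 2, of the same group, were its lowest and highest libraries.

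*Nr1d1* (Entrez gene 217166, chromosome 11), the repressor of *Arntl*, was at 32.8, 29.4 and 62.1 CPM in DSS 1, 2 and 3. It was at 19.1, 24.8 and 32.9 CPM in DSS+BV 1, 2 and 3. DSS 3 stood above all other libraries, and DSS+BV 3 lay just above DSS 1. *Dbp* (Entrez gene 13170, chromosome 7), a transcription factor that passes the rhythm on to metabolic genes, was at 10.4, 17.7 and 24.1 CPM in the DSS mice and at 14.4, 11.5 and 22.6 CPM in the DSS+BV mice. Its highest libraries, DSS 3 and DSS+BV 3, came from different groups. In the GENCODE M21 annotation, exons of *Nr1d1* share 263 bases (9.67% of its exon length) with *Thra* on the opposite strand, and exons of *Dbp* share 539 bases (29.3%) with *Sphk2* on the opposite strand. Whether the counting used strand is not given in the sources used here, so reads in these stretches cannot be assigned with certainty. *Thra* was at 39.4 to 69.6 CPM and *Sphk2* at 53.8 to 69.4 CPM over the 6 libraries.

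**Figure D1:**
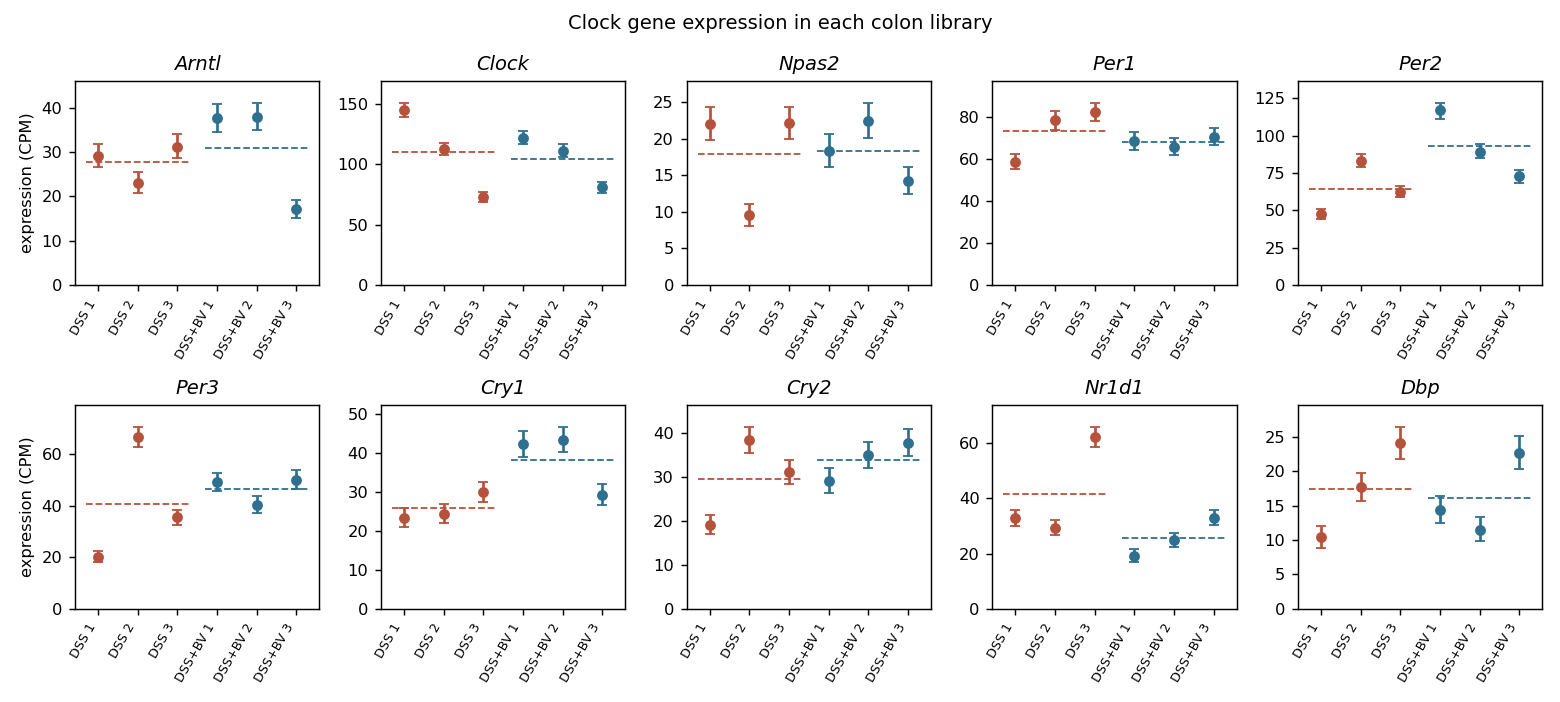
Expression of each clock gene in CPM (linear axes from 0) in the 3 DSS (red) and 3 DSS+BV (blue) libraries. Points are single mice with exact Poisson 95% intervals, which cover counting error only, and dashed lines are group means. In each of the 10 genes the values of the groups overlap.

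Levels were compared between genes only per kilobase of exon (GENCODE M21, basic set). By the median over the 6 libraries the order was *Per2* (13.4 CPM per kb), *Per1* (12.4), *Nr1d1* (11.4), *Clock* (11.3), *Cry1* (9.78), *Arntl* (9.77), *Dbp* (8.72), *Cry2* (7.60), *Per3* (7.48) and *Npas2* (4.75). The ranges of every pair of neighbours in this order overlapped. *Npas2*, at 2.25 to 5.30 CPM per kb, was below the lowest library of each gene except *Cry2* (lowest at 4.40) and *Per3* (lowest at 3.38).

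Between the treatments, none of the 10 clock genes was called. A call needed a more than 2-fold change in either direction and an adjusted p-value below 0.05 in the quasi-likelihood test of edgeR (Benjamini-Hochberg adjustment over 14579 genes). In this comparison 0.0892% of all tested genes (13) were called, all lower in DSS+BV. At an unadjusted p-value under 0.05, 1 of the 10 was higher in DSS+BV, *Cry1*, beside 3.4% of all tested genes. None of the 10 was lower, beside 9.12% of all tested genes, and in either direction the share of all tested genes was 12.5%. DESeq2, the tool of the study, called 0 of the 10 and 2.01% of the genes it tested. The groups overlapped in all 10 genes, whereas they did not overlap in 17.6% of all tested genes. The median log2 fold change (DSS+BV against DSS) of the 10 genes was 0.09, with 6 higher and 4 lower, and that of all tested genes was -0.01.

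On the log2 scale *Cry1* was higher by 0.56 in DSS+BV (95% interval 0.08 to 1.05, standard error 0.20, edgeR adjusted p = 0.361). Its fold change stayed between 0.47 and 0.73 with any 1 library left out. The log2 fold change of *Nr1d1* was -0.69 (95% interval -1.51 to 0.12, standard error 0.34, edgeR adjusted p = 0.459), and -0.28 without DSS 3. That of *Per2* was 0.53 (95% interval -0.09 to 1.14, standard error 0.26, edgeR adjusted p = 0.456), 0.34 without DSS+BV 1 and 0.35 without DSS 1. The other 7 genes lay between -0.10 and 0.20, with adjusted p-values of at least 0.78 in the edgeR test. Their intervals were wide. The narrowest was that of *Per1*, from -0.47 to 0.27, and the widest that of *Per3*, from -0.77 to 1.15. Those of *Dbp* (-1.01 to 0.80) and *Arntl* (-0.62 to 0.92) also held changes of close to 2-fold.

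**Figure D2:**
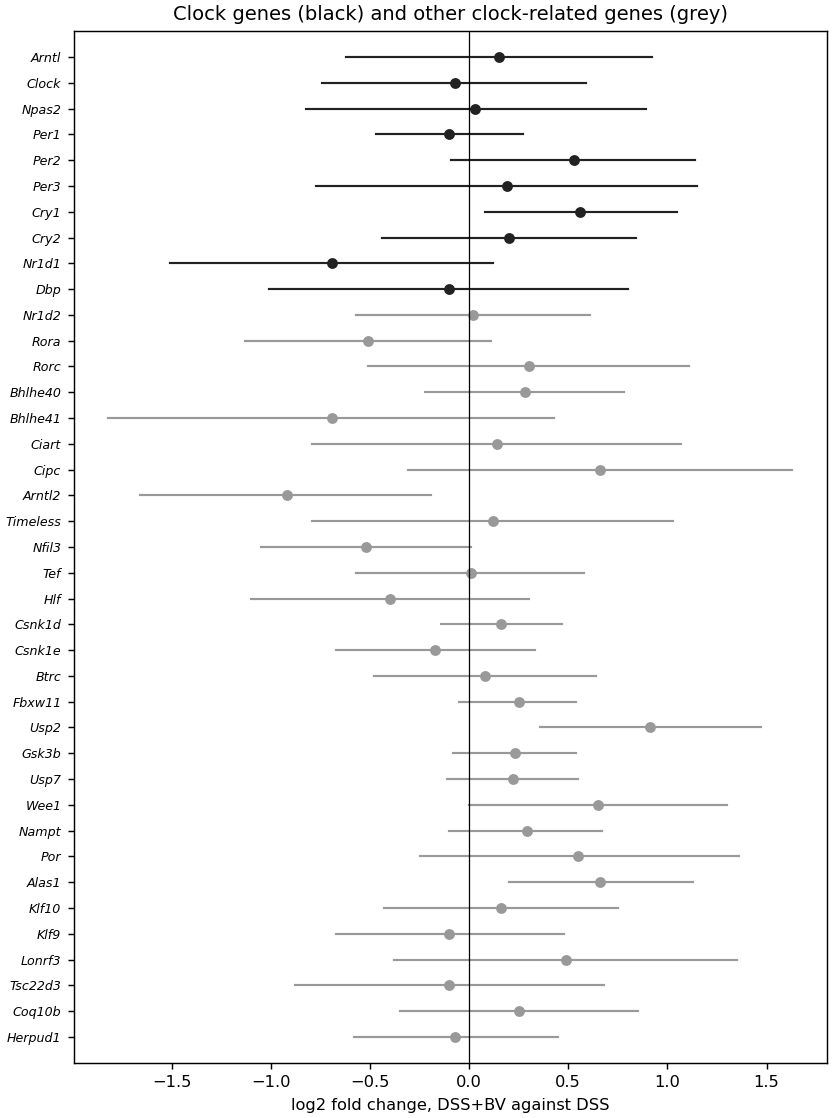
Log2 fold changes of DSS+BV against DSS with 95% intervals from the edgeR fit (n = 3 mice per group), for the 10 clock genes (black) and other tested clock-related genes (grey). Of the 10 clock genes, the interval of *Cry1* (0.08 to 1.05) leaves out 0, before any adjustment for the number of genes.

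The SD of log2 CPM within the groups was 0.62 in *Per3*, larger than or equal to that of 82.5% of all tested genes. It was 0.55 in *Dbp* (79.1%), 0.54 in *Npas2* (78.3%), 0.50 in *Nr1d1* (74.9%) and 0.49 in *Arntl* (74.7%). *Per1*, at 0.19, was at 27.4%. Over the 10 genes the median SD was 0.46, beside 0.29 over all tested genes. These shares describe the 6 libraries and were not tested.

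To place each mouse on the balance of the loop, a phase index was taken as the mean log2 CPM of *Nr1d1*, *Dbp*, *Per1*, *Per2* and *Per3* minus that of *Arntl*, *Npas2* and *Clock*. It was -0.66, 0.68 and 0.40 in DSS 1, 2 and 3. It was -0.11, -0.30 and 0.75 in DSS+BV 1, 2 and 3. The index spanned 1.40 log2 units over the 6 mice, and the groups overlapped. Its 0 is set by the levels of the genes in it and marks no point of the cycle. The group means differed by -0.03 (DSS+BV minus DSS), with an SD of 0.64 within the groups, and by between -0.43 (without DSS 1) and 0.24 (without DSS 2) with 1 library left out. Within the arm of *Nr1d1* the log2 fold changes went both ways and partly cancelled. They were -0.69 in *Nr1d1*, -0.10 in *Dbp* and *Per1*, 0.53 in *Per2* and 0.19 in *Per3*. The difference of -0.03 therefore does not show that the single genes were level between the groups. With only *Nr1d1* and *Dbp* against *Arntl* and *Npas2*, the index was -0.45, 0.61 and 0.56 in the DSS mice and -0.66, -0.78 and 0.81 in the DSS+BV mice. That difference was -0.45, the lowest mouse was DSS+BV 2 in place of DSS 1, and DSS+BV 3 was again the highest. DSS 2 and DSS+BV 3, the highest in both indices, also deviated together from their group means across all tested genes (r = 0.48), more than any other pair of libraries from different groups. The part of this in their index was not tested. The index has no unit of time, and without the hour of sampling it gives no clock phase. It was not tested, as a score over genes that define it.

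The ratio of *Dbp* to *Arntl* counts, which needs no scaling between libraries, also differed between mice. It was 0.355, 0.763 and 0.772 in the DSS mice and 0.382, 0.304 and 1.33 in the DSS+BV mice. *Nr1d1* per *Arntl* was 1.13, 1.27 and 1.99 in the DSS mice and 0.509, 0.654 and 1.93 in the DSS+BV mice. By these ratios DSS+BV 3 lay with the DSS mice or beyond them, and DSS+BV 1 and 2 had the lowest *Nr1d1* per *Arntl*. *Cry1* per *Nr1d1*, a late gene over an early gene of the cycle, was 0.712, 0.829 and 0.482 in the DSS mice. It was 2.21, 1.75 and 0.889 in the DSS+BV mice, so that the groups did not overlap in this ratio. It was the only 1 of 6 ratios computed without overlap, was chosen after the values were seen, and was not tested.

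**Figure D3:**
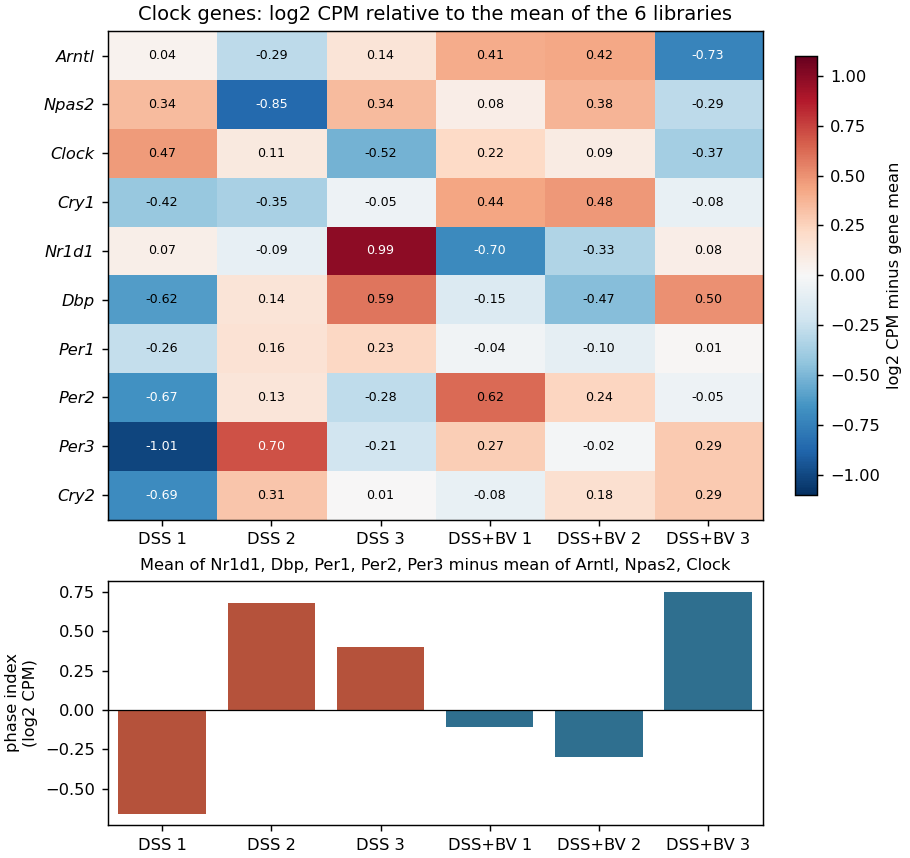
Top: log2 CPM of each clock gene minus its mean over the 6 libraries (red higher, blue lower), with *Arntl*, *Npas2* and *Clock* above and their targets below. Bottom: the phase index of each mouse (log2 CPM, bars from 0), with DSS in red and DSS+BV in blue. DSS 2 and DSS+BV 3, of different groups, have the highest indices (0.68 and 0.75), and DSS 1 the lowest (-0.66).

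DSS 1 had the lowest *Per1*, *Per2*, *Per3*, *Cry1*, *Cry2* and *Dbp* of the 6 libraries and the highest *Clock*. DSS 3 had the highest *Nr1d1*, *Dbp* and *Per1* and the lowest *Clock*. DSS 2 and DSS+BV 3 had the lowest *Arntl* and *Npas2* and the highest *Cry2*. DSS+BV 1 and 2 had the highest *Arntl*, *Cry1* and *Per2* and the lowest *Nr1d1*.

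Correlations were taken over the 6 mice on log2 CPM. Between the arms of the index, 12 of 15 pairs had a negative Pearson's r (median -0.31). Within the arm of *Nr1d1*, *Dbp* and the *Per* genes 8 of 10 pairs were positive (median 0.50), as were all 3 pairs among *Arntl*, *Npas2* and *Clock*. Over all pairs of tested genes, 50.5% were negative. After the group means were removed, 12 of the 15 pairs between the arms were again negative. Without the 2 libraries farthest from the median of the first gene of each pair, 10 of the 15 pairs between the arms were negative, and 5 of the 10 and 2 of the 3 pairs within the arms were positive. The points share the library and its scaling factor, and each gene enters several pairs.

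Single relations could not be called with 6 mice. Over 75 relations (45 pairs of clock genes and *Arntl* with 30 other genes), the smallest Benjamini-Hochberg adjusted value was 0.66 for Pearson's r and 0.785 for Spearman's rho, from two-sided exact permutation tests. The strongest pair was *Clock* and *Dbp* (r = -0.90, exact permutation p = 0.0222, rho = -0.83, exact permutation p = 0.0583), with r = -0.60 without the 2 libraries farthest from the median of *Clock* (DSS 3 and DSS+BV 3). *Per3* and *Cry2* had r = 0.89 (exact permutation p = 0.0264) and rho = 0.83 (exact permutation p = 0.0583), but r = 0.20 without DSS 1 and DSS 2. *Per1* and *Dbp* had r = 0.85 (exact permutation p = 0.0389) and rho = 0.94 (exact permutation p = 0.0167), and r = 0.57 without DSS 1 and DSS 3. Each r was smaller in size without the 2 libraries. Leaving them out also leaves fewer mice and a narrower range, so the fall alone does not decide whether a relation holds. The exceptions to the opposing pattern included *Nr1d1* and *Per2*, of the same arm, at r = -0.68. The labels name no batch within which these relations could be computed again.

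**Figure D4:**
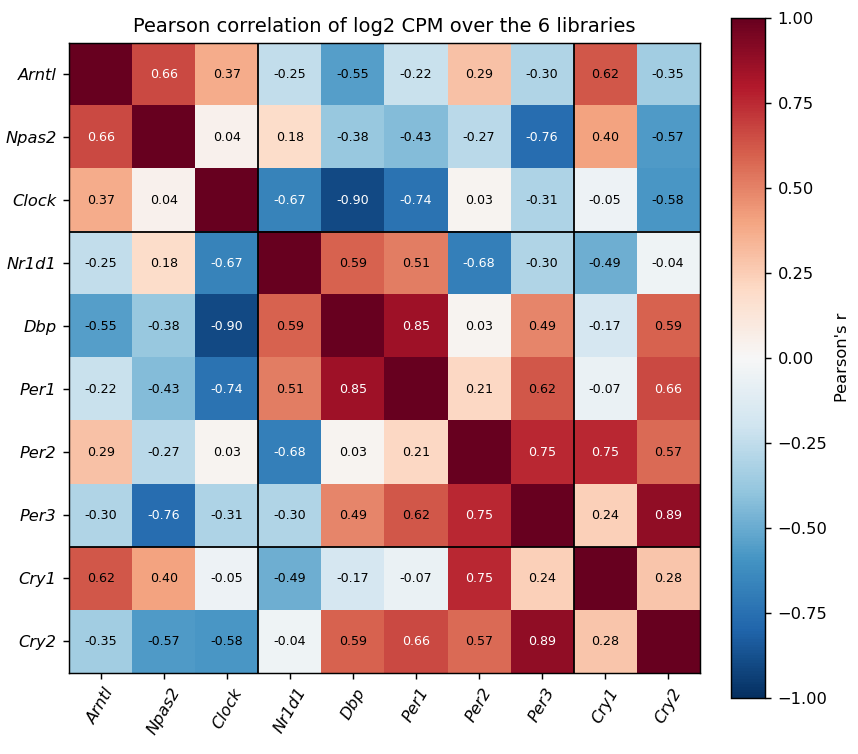
Pearson's r of log2 CPM over the 6 libraries for each pair of clock genes, with lines between the arms of the phase index and the *Cry* genes. Of the 15 pairs between *Arntl*, *Npas2* or *Clock* and the other arm, 12 are negative, the lowest at -0.90 for *Clock* and *Dbp*.

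Among the clock genes, *Npas2* (r = 0.66) and *Cry1* (r = 0.62) had the highest correlations with *Arntl*, both with a rho of 0.77, and 6.67% and 8.03% of tested genes were at or above them. With the group means removed, r was 0.65 for *Npas2* and 0.90 for *Cry1*. *Dbp* had the lowest (r = -0.55, with 9.99% of tested genes at or below). Without DSS 2 and DSS+BV 3, the libraries farthest from the median of *Arntl*, r was -0.46 for *Npas2*, 0.99 for *Cry1* and -0.12 for *Dbp*. In the remaining libraries it was 0.95 for *Per2*, 0.87 for *Per3*, 0.75 for *Cry2*, 0.06 for *Per1*, 0.04 for *Clock* and -0.70 for *Nr1d1*. Over all 6 libraries r was 0.29 for *Per2*, -0.30 for *Per3* and -0.35 for *Cry2*. The relations with *Arntl* thus depended on which mice were included. The values without these libraries are over fewer mice and a narrower range. Among tested genes with a mean of at least 10 CPM, the profiles closest to *Arntl* were those of *Hs6st1* (r = 0.986), *Tra2a* (0.986), *Creb1* (0.985), *Mindy3* (0.983) and *Rpap2* (0.983). The most opposed were *Ppcdc* (-0.995), *Def8* (-0.989), *Pex16* (-0.970), *Mllt6* (-0.961) and *Tmem230* (-0.961). These values are over 6 libraries, and of the 10425 genes compared 90 reached at least 0.9 and 36 at most -0.9. These 10 genes spanned from 1.08-fold (*Ppcdc*) to 1.63-fold (*Pex16*) over the 6 libraries, less than the 2.22-fold of *Arntl*.

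Of 32 other genes of the clock and its outputs, 30 were tested, and 0 were called with edgeR or DESeq2 (21 higher and 9 lower, median log2 fold change 0.15). The shares called of all genes each tool tested were 0.0892% and 2.01%. At an unadjusted p-value under 0.05, 3 of the 30 were higher and 1 was lower, beside 3.4% and 9.12% of all tested genes. Of 13 other genes of the clock loops, *Tef* and *Hlf* of the PAR bZIP family among them, 12 were tested. The REV-ERB paralogue *Nr1d2* (59.7 to 96.9 CPM without BV and 72.6 to 108 CPM with it) had a log2 fold change of 0.02, beside the -0.69 of *Nr1d1*, and the difference between them was not tested. *Nfil3*, the D-box repressor, had -0.52, and *Tef* and *Hlf*, which encode relatives of DBP, had 0.01 and -0.40. *Arntl2*, a paralogue of *Arntl* at low expression, was at 3.59, 3.23 and 4.19 CPM in the DSS mice and at 2.51, 1.72 and 1.58 CPM in the DSS+BV mice, without overlap (log2 fold change -0.92, standard error 0.31, edgeR adjusted p = 0.345). Groups without overlap in the lower direction were present in 1 of the 12 loop genes and in 11.3% of all tested genes. *Ciart*, which encodes a further repressor of the ARNTL pair, was at 2.87, 4.91 and 4.08 CPM in the DSS mice and at 3.30, 3.18 and 6.58 CPM in the DSS+BV mice. Of the 30 genes it was the most opposed to *Arntl* (r = -0.88, exact permutation p = 0.0194, rho = -0.66, exact permutation p = 0.175), with r = -0.01 without DSS 2 and DSS+BV 3.

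Among 8 tested genes for the turnover of clock proteins, 7 had fold changes above 0. *Usp2*, a rhythmic deubiquitinase that acts on clock proteins, was at 13.1, 12.7 and 21.0 CPM in the DSS mice and at 26.9, 30.1 and 31.0 CPM in the DSS+BV mice. Each DSS+BV mouse was above each DSS mouse, at 0.91 on the log2 scale (standard error 0.23, adjusted p = 0.281 with edgeR and 0.0286 with DESeq2, whose fold change of 0.93 was under the threshold). The kinase *Csnk1d*, which marks PER proteins for removal, had a log2 fold change of 0.16, and its paralogue *Csnk1e* had -0.17. Groups without overlap in the higher direction were present in 5 of the 8 (*Csnk1d*, *Fbxw11*, *Usp2*, *Gsk3b* and *Usp7*) and in 6.37% of all tested genes.

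Of 10 genes known as rhythmic outputs, 7 were higher and 3 lower. With edgeR and DESeq2 0 were called, beside 0.0892% and 2.01% of the genes each tool tested. *Alas1*, the first enzyme of haem synthesis, was at 106.5, 139 and 131 CPM in the DSS mice and at 154, 211.5 and 231 CPM in the DSS+BV mice (log2 fold change 0.66, standard error 0.20, edgeR adjusted p = 0.322). Its groups did not overlap, which held in the higher direction for 1 of the 10 genes and for 6.37% of all tested genes. *Wee1*, a kinase that delays mitosis, had a log2 fold change of 0.65 with overlapping groups, and *Nampt*, the enzyme of NAD salvage, had 0.29.

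Summed levels of several cell type markers differed between the groups beside these values. The summed level of 8 epithelium markers was 11700 to 13800 CPM in the DSS mice and 14900 to 20000 CPM in the DSS+BV mice. That of 6 neutrophil markers was 126 to 160 CPM and 10.3 to 21.8 CPM, that of 5 fibroblast markers 3140 to 3460 CPM and 1080 to 1570 CPM, and that of 6 enteric neuron and glia markers 39.0 to 162 CPM and 30.8 to 33.6 CPM. Those of smooth muscle (3180 to 3910 against 2300 to 3820 CPM) and leukocytes (225 to 537 against 128 to 411 CPM) overlapped. The sum of 4 genes that vary along the length of the colon was 333, 891 and 244 CPM in the DSS mice and 458, 2870 and 3780 CPM in the DSS+BV mice, with DSS+BV 2 and 3 far above the other libraries. Of these 4 genes 1 was higher and 3 were lower in DSS+BV (log2 fold changes from -1.22 to 2.87). The sum therefore does not give the direction of each gene. None of these markers was at or under 3 counts in every library. By the summed epithelium markers, at 11700 CPM or more in each library, the epithelium that the tissue label implies was present in each group. The part of cell makeup or of position along the colon in the fold changes of *Cry1*, *Nr1d1*, *Per2*, *Usp2* and *Alas1* was not tested.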

How the data were processed

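Colon RNA from 3 DSS and 3 DSS+BV mice was sequenced, 1 library per mouse. The authors quantified genes with RSEM and deposited expected counts per gene, unscaled between libraries. The submitters' processing notes name HISAT2 2.1.0, Bowtie2 2.2.5, RSEM 1.2.8 and GRCm38.p6. Groups came from the sample labels.

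Expected counts were rounded, genes were kept with filterByExpr (minimum count 10, minimum total 15), and libraries with totals between 15293276 and 17254343 were scaled with TMM factors. The quasi-likelihood test of edgeR 4.0.16 (R 4.3.3) was fitted to all 14579 kept genes with Benjamini-Hochberg adjustment. Standard errors are the log2 fold change over the root of the F statistic, and 95% intervals use 6.68 degrees of freedom. Log2 CPM used a prior count of 2. The fits were tested first on simulated data. Exact permutation tests were two-sided, and no single gene with 3 mice a group can go below 0.1 in one.

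Genes named are the 10 clock genes, hand-written lists of other clock genes, and the 5 genes at each end of the correlation with *Arntl*. The members, lists and index were chosen with earlier results of these data known. Alternatives were DESeq2 1.42.0, RLE factors, no filter, a replicate block, the adjusted p alone, another prior count or index, and each library left out. Replicates differed by more than sampling noise (chi-square per degree of freedom 42.7 to 118). The values of 1 gene of the lists are not reported here, and it was left out of the plot of fold changes but not of the counts.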

Additional observations from a re-analysis of the deposited data

How the results depend on the processing

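None of the 10 clock genes and none of the 30 other clock genes was called with DESeq2, RLE factors, every gene with a count, the replicate block, the adjusted p alone or any 1 library left out. Over all genes the number called was 13, 325 with DESeq2, 0 with the replicate number as a block, and 0 to 7 with 1 library left out (7 without DSS+BV 1, 1 without DSS 2 and 0 without each of the others). The block changed no call of a clock gene, and the numbers were not taken to pair the mice. Deviations from the group means correlated at 0.27, 0.26 and -0.30 across genes between same-numbered libraries, and at -0.57 to 0.48 between the others. In 100 refits of single clock genes the direction was kept in 90 and turned in 10, all with 1 library left out, and the lowest adjusted p was 0.215. The ranges of log2 fold change with 1 library left out were -0.022 to 0.445 in *Arntl*, -0.30 to 0.18 in *Clock*, -0.25 to 0.21 in *Npas2*, -0.13 to 0.75 in *Per3*, -0.029 to 0.444 in *Cry2* and -0.42 to 0.21 in *Dbp*. The cause was not tested. *Cry1*, *Per2*, *Nr1d1* and *Per1* kept their direction in these refits. The difference in phase index between the groups lay between -0.43 and 0.24 with 1 library left out. It was -0.45 with *Nr1d1* and *Dbp* against *Arntl* and *Npas2* alone. The SD of 0.64 is the spread of single mice within the groups in the full index. It is not the error of these differences, which were not tested. Exact Poisson intervals of libraries of 1 group did not overlap in 45 of 60 pairs (2 of 6 in *Per1*). In the other pairs they overlapped, which is no test of a difference and does not show equal levels.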

Other observations

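Genes that respond to glucocorticoid hormone, which can also set peripheral clocks, were listed because *Per1* and *Per2* are among its known targets. Of 10 such genes, 7 were lower and 3 higher in DSS+BV, and 0 were called with edgeR and 1, *Mt2*, with DESeq2 (adjusted p = 0.00707), beside 0.0892% and 2.01% of all tested genes. *Fkbp5*, a co-chaperone of the receptor, was at 191.5, 186 and 202 CPM in the DSS mice and at 217, 327 and 331 CPM in the DSS+BV mice (log2 fold change 0.59, edgeR adjusted p = 0.341). The metallothionein *Mt2* was at 136, 152 and 409 CPM in the DSS mice and at 55.5, 81.4 and 64.3 CPM in the DSS+BV mice (log2 fold change -1.79, edgeR adjusted p = 0.28). The groups did not overlap in these 2 genes or in *Ddit4* and *Mt1*, which were lower in DSS+BV (log2 fold changes -0.84 and -0.96, edgeR adjusted p = 0.329 and 0.364). Without overlap, 3 of the 10 were thus lower and 1 higher, beside 11.3% and 6.37% of all tested genes. *Tsc22d3* and *Klf9*, which are also known as rhythmic genes, had log2 fold changes of -0.10 each, with overlapping groups.

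Immediate early genes, which acute signals switch on together with *Per1* and *Per2*, were summed at 343, 513 and 767 CPM in the DSS mice and at 842, 815 and 415 CPM in the DSS+BV mice. Of the 8 genes 6 were higher. With edgeR and DESeq2 0 were called, beside 0.0892% and 2.01% of the genes each tool tested. *Fosb* ranged from 1.38 to 6.87 CPM in DSS and from 3.86 to 39.4 CPM in DSS+BV (log2 fold change 2.48, edgeR adjusted p = 0.384). DSS+BV 1 and 2, the libraries with the highest *Arntl*, *Cry1* and *Per2*, also had the highest values in 6 of the 8 genes, such as *Fos* (248 and 212 CPM) and *Egr1* (162 and 153 CPM). The exceptions were *Jun* (68.7 and 96.7 CPM, against 178 CPM in DSS 3) and *Junb* (174 and 126 CPM, against 197 CPM in DSS 3). *Per1* did not share the pattern of *Per2*. In DSS+BV 1 and 2 it was at 68.7 and 65.9 CPM, under DSS 2, DSS 3 and DSS+BV 3. The high early genes of DSS+BV 1 and 2 were noticed after the values were seen, and their relation to the clock genes was not tested.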
